A study of Mus musculus with 31 samples.

Results

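Axon guidance ligands and receptors are described here across ribosome-bound RNA of mouse sensory neurons. The genes were chosen by symbol: all protein-coding genes of the semaphorin classes 3 to 7, plexins, neuropilins 1 and 2, Slits, Robo receptors, netrins and netrin-G proteins, Unc5 receptors and Dcc, Eph receptors and ephrins. The rule found 71 genes among 55536 gene identifiers, of which 22028 were protein-coding genes present in both count tables. They comprised 7 class 3 and 13 class 4 to 7 semaphorins, 4 A plexins, 5 B to D plexins and 2 neuropilins, 3 Slits and 4 Robo receptors. The others were 4 netrins, 2 netrin-G genes, 5 Unc5 and Dcc genes, 5 ephrin-A and 3 ephrin-B genes, 9 EphA receptors and 5 EphB receptors.

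The study pulled down GFP-tagged ribosomes (translating ribosome affinity purification, TRAP) and sequenced the RNA they carried. Cre mice carried Nav1.8-Cre on top of L10a-eGFP-fl/fl. In them Cre driven from the gene of the sodium channel Nav1.8 (Scn10a) allows the floxed L10a-eGFP ribosomal protein to be made. Controls were L10a-eGFP-fl/fl mice without Cre, so all groups carried the floxed allele and only the Cre groups should hold tagged ribosomes. Nav1.8 is a channel of nociceptors, the neurons that sense damaging stimuli, and the tagged cells are those of the Nav1.8 lineage.

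Batch 1 held central axons, taken from lumbar dorsal roots together with spinal cord, and somas, taken from lumbar dorsal root ganglia. Batch 2 held peripheral axons, taken from sciatic nerve, and further somas. Each had a Cre and a control group, giving 8 groups and 31 libraries: 4 libraries in every group except the peripheral axon controls, which had 3. Age, sex and strain background, and whether a replicate was 1 animal or a pool, are not given in the sources used here. The p-values therefore measure the spread between these samples. Axon type and batch cannot be told apart, so each axon was set against the somas of its own batch.

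Guidance cues and their receptors steer growing axons and later shape synapses, vessels and nerve repair. Secreted class 3 semaphorins act mainly through neuropilins paired with A plexins, and membrane-bound semaphorins mostly bind plexins directly. Slits repel axons through Robo receptors, netrins attract them through Dcc or repel them with Unc5 receptors, and ephrins signal through Eph receptors on neighbouring cells, often in both directions. In the dorsal root ganglion these systems direct the central branch into the spinal cord and the peripheral branch along the nerve.

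Total counts ran from 3601399 to 19637292 per library, so that 3 counts, taken as the detection floor, were worth 0.153 to 0.833 CPM (the count scaled to a common library total). The libraries hold no molecular identifiers, and intervals and floors cover counting error only. The controls were uneven: 13 to 33 of the 71 genes reached 10 counts in single soma batch 1 controls, against 46 to 60 in their Cre libraries. Central axon control 3 had 25 such genes and the other central axon controls 48 to 65. Scn10a in the central axon ran from 45.1 to 421 CPM with Cre and from 0 to 29.9 CPM without it. In the peripheral axon Scn10a overlapped, with 42.1 to 304 CPM in Cre and 0 to 127 CPM in control libraries, as did the summed nociceptor markers (490 to 1540 and 245 to 1210 CPM). Scn10a did not separate the soma groups, with 313 to 505 CPM in Cre and 33.4 to 625 CPM in control libraries of batch 1. All 9 nociceptor markers reached 10 counts in every central axon Cre library, and 2 of them, Scn11a and Trpv1, had no count in any central axon control.

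**Figure D1:**
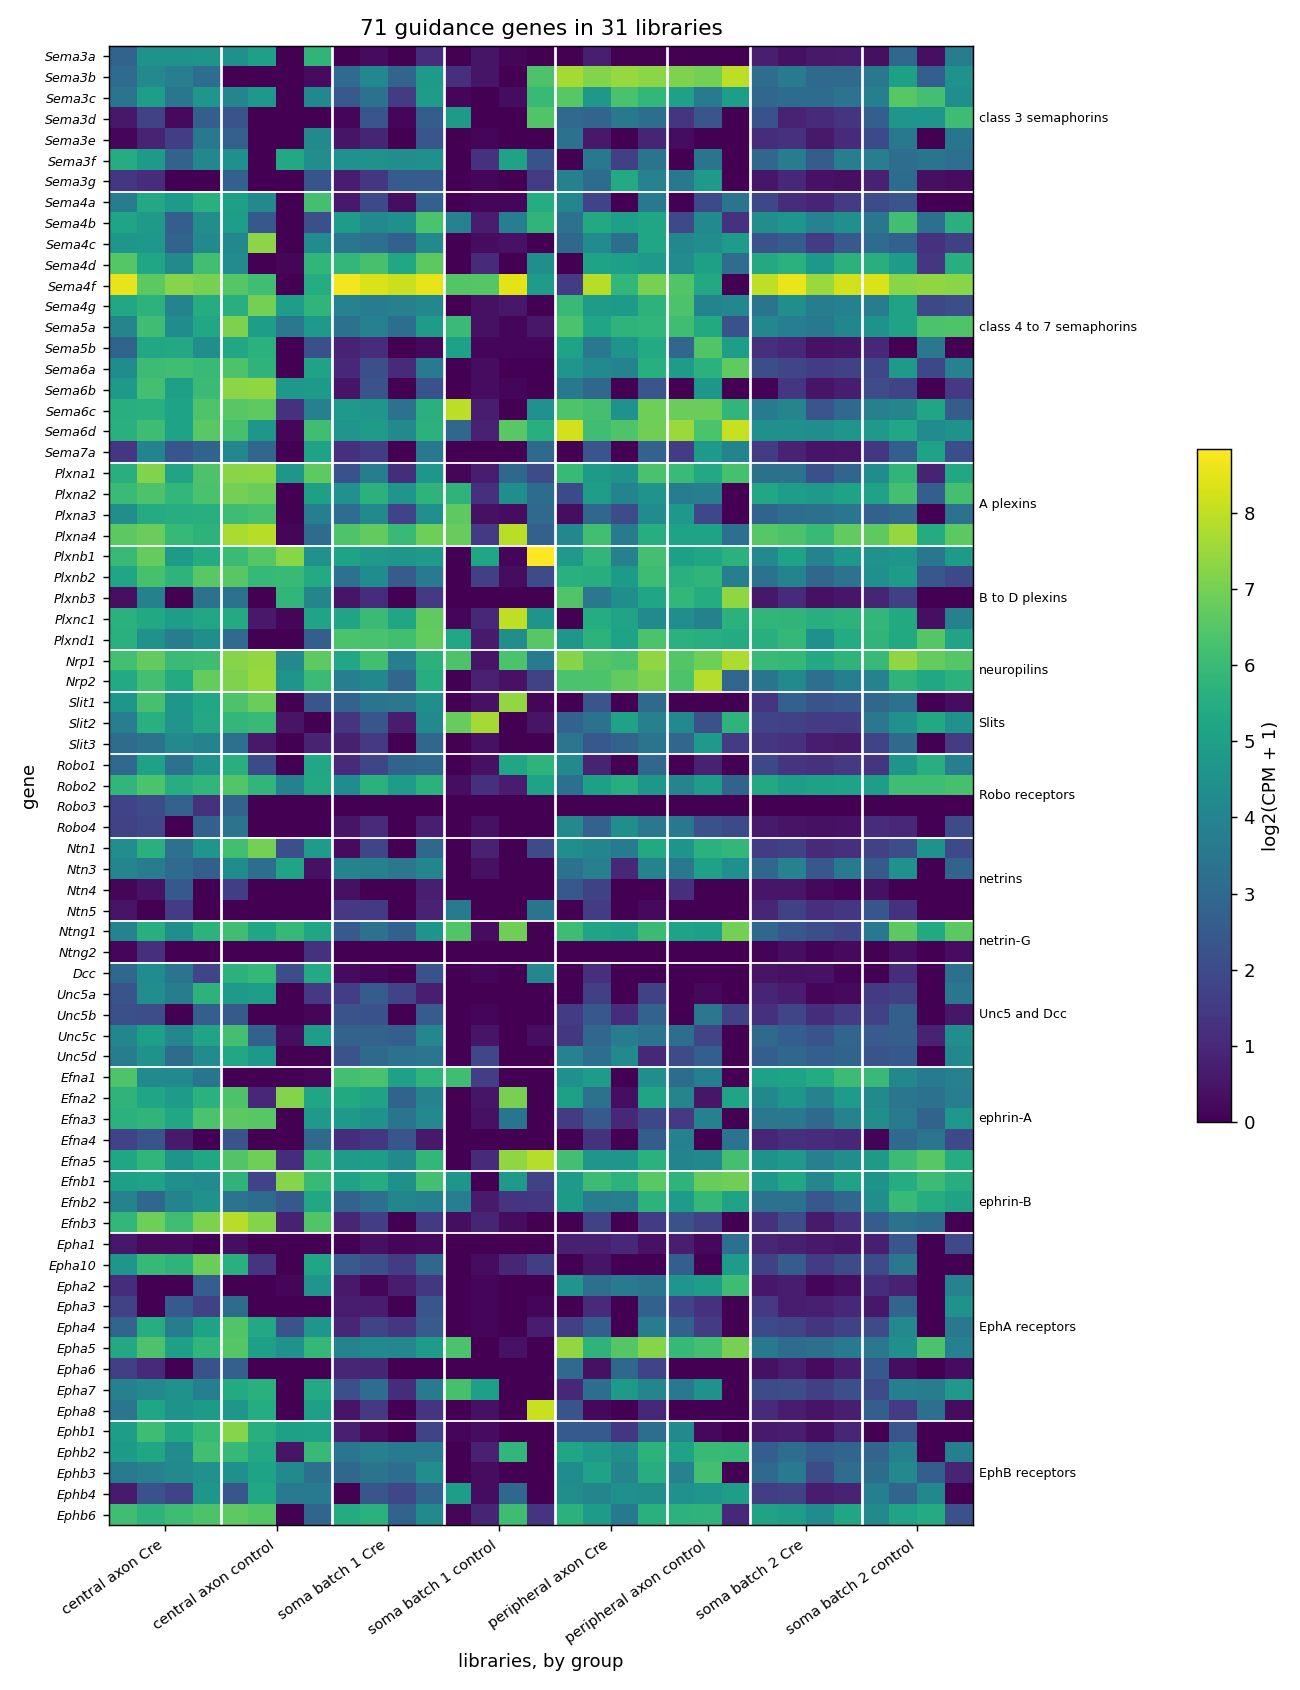
Level of each of the 71 guidance genes (rows, grouped by family as named on the right) in each of the 31 libraries (columns, white lines between groups), as log2(CPM + 1), where brighter is higher. Sema4f stands out across the soma Cre libraries and Sema3b across the 7 peripheral axon libraries, while 1 central axon control and the soma batch 1 controls are dark for most genes.

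Compared per exon length, Sema4f, a membrane-bound class 4 semaphorin, was the highest guidance transcript in 3 of the Cre groups. Its mean level was 64.6 ± 10.7 CPM per kb (SD, n = 4) in soma batch 1 Cre, 52.6 ± 16.2 in soma batch 2 Cre and 34.9 ± 22.7 in central axon Cre. It made up 26.3% and 29.3% of the summed per-length level of all 71 genes in the Cre somas of batches 1 and 2. In the soma controls it also ranked first, with 26.6 ± 27.9 and 37.6 ± 15.9 CPM per kb. Efna1, an ephrin-A anchored to the membrane by a lipid, came next in the somas with 32.4 ± 11.3 and 23.8 ± 8.55 CPM per kb. In peripheral axons the first place went to Sema3b, at 35.8 ± 5.14 CPM per kb in Cre and 35.7 ± 14.1 (n = 3) in control libraries.

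Summed by family, the 7 class 3 semaphorins together stood at 38.7 to 60.0 CPM per kb in the peripheral axon Cre libraries and 36.0 to 56.1 in their controls. In the Cre somas of batch 2 the same sum was 3.85 to 6.36 CPM per kb, and in central axon Cre libraries 7.03 to 15.1. The 9 EphA receptors, which include receptors that repel axons during topographic mapping, summed to 10.9 to 32.5 CPM per kb in central axon Cre and 1.69 to 5.58 in soma batch 1 Cre libraries. Among the central axon controls the EphA sum was 1.8 to 34.2 CPM per kb, a range that spans that of the Cre libraries.

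Several leading members of other families were highest in the central axon among the Cre groups. Ephb6, an EphB receptor without kinase activity, averaged 17.8 ± 3.36 CPM per kb there and 7.63 ± 5.43 in soma batch 1 Cre libraries. Slit1, a repellent ligand, averaged 6.902 ± 4.18 against 1.95 ± 1.00, and its receptor Robo2 3.47 ± 0.91 against 2.15 ± 0.94. Ntn1, the prototype netrin, averaged 3.94 ± 2.61 CPM per kb in central axons, 3.46 ± 2.01 in peripheral axons and 0.382 ± 0.500 and 0.267 ± 0.092 in the somas of batches 1 and 2. Nrp1, the co-receptor of semaphorin 3A, was highest in peripheral axons with 12.4 ± 4.37 CPM per kb, against 5.38 ± 1.014 in the somas of that batch. In the untagged controls of the same tissues Slit1 (8.51 CPM per kb), Ntn1 (9.10) and Nrp1 (14.2) averaged above the Cre libraries, and Ephb6 (12.8) and Robo2 (2.91) below. In central axon against soma, none of Ephb6, Slit1, Robo2 and Ntn1 was called (edgeR adjusted p = 0.311, 0.0715, 0.647 and 0.0723).

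Sema3b (ENSMUSG00000057969, chromosome 9, 107597674 to 107609229, mm10) encodes a secreted class 3 semaphorin that signals through neuropilins. In peripheral axon Cre libraries it was at 202, 146, 178 and 158 CPM, and in their controls at 138, 125 and 248 CPM. In soma batch 2 Cre libraries it was at 7.93, 11.6, 7.13 and 7.38 CPM, and in their controls at 10.7, 31.8, 5.28 and 21.5 CPM. All 7 peripheral axon libraries thus lay above all 8 soma libraries of that batch, and Cre and control overlapped in both tissues. Among Cre libraries Sema3b rose by 4.13 ± 0.28 (± SE) from soma to peripheral axon on the log2 scale (edgeR adjusted p = 1.95e-05). Between Cre and control peripheral axons the log2 difference was 0.12 ± 0.36 (adjusted p = 1.00).

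In batch 1 Sema3b followed another pattern. Central axon Cre libraries held 7.55, 16.9, 12.7 and 8.23 CPM, whereas 3 of the central axon controls held no count and the fourth 0.205 CPM. Soma batch 1 Cre libraries held 7.56, 16.3, 6.39 and 27.3 CPM, overlapping with the central axons, and their controls 1.35, 0.432, 0 and 80.7 CPM. Over the groups, 494 counts in central axon Cre libraries stood against 2 in the controls, a ratio of 217 with a 95% counting interval of 59.8 to 1800. The edgeR adjusted p was 0.241, and among 14 alternatives only DESeq2 called the gene (adjusted p = 4.90e-05, range over the alternatives 4.90e-05 to 0.927).

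Plxnc1 (ENSMUSG00000074785, chromosome 10, 94790866 to 94944835, mm10) is the receptor of semaphorin 7A. Soma batch 2 Cre libraries held 54.9, 54.6, 47.1 and 52.1 CPM, and soma batch 1 Cre libraries 35.01, 63.3, 36.8 and 101 CPM. Peripheral axon Cre libraries held 0, 43.2, 34.4 and 17.5 CPM, all below the somas of their batch, and central axon Cre libraries held 48.6, 40.7, 30.1 and 37.2 CPM, overlapping with theirs. The fold change against soma was not past the threshold in either axon, with log2 values of -1.25 ± 0.84 (edgeR adjusted p = 0.282) in the peripheral and -0.98 ± 0.37 (adjusted p = 0.0927) in the central axon. The controls spread widely, from 0.123 to 253 CPM in soma batch 1 and from 0.278 to 56.6 CPM in soma batch 2. A share of 1.38% of the exon length of Plxnc1 is shared with another gene on the same strand, so reads there may be assigned to either.

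**Figure D2:**
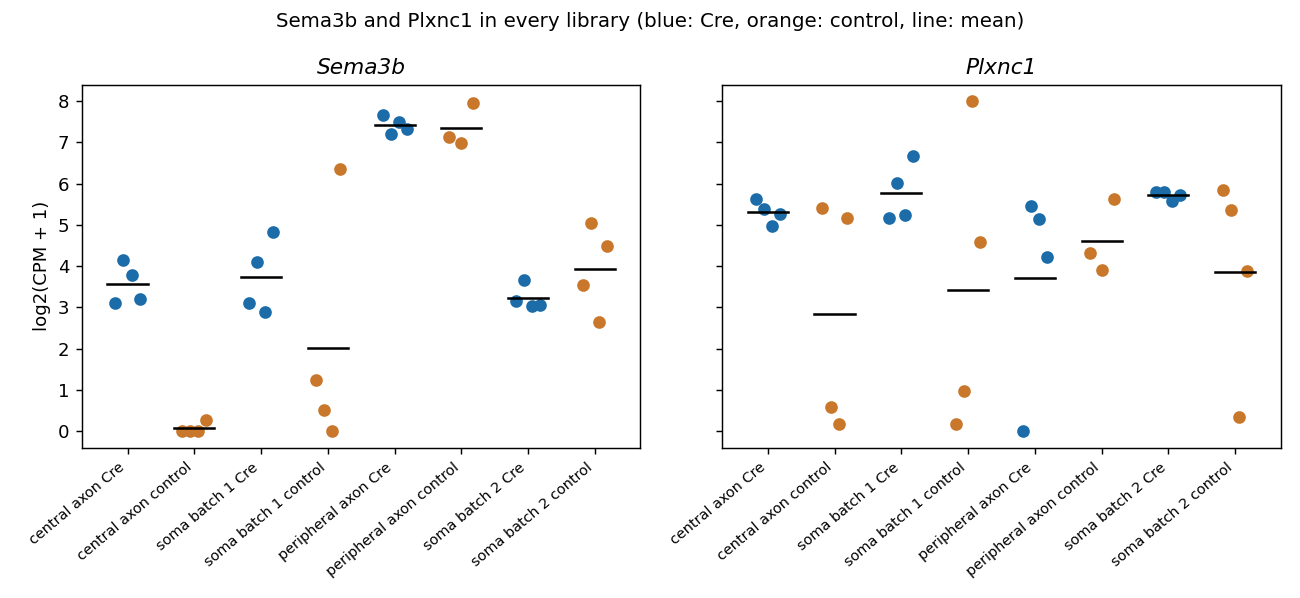
Level of Sema3b (left) and Plxnc1 (right) in every library as log2(CPM + 1), by group on the horizontal axis, with blue points for Cre libraries, orange points for controls and a line at the mean of the plotted values of each group. Sema3b is high in Cre and control peripheral axons alike and at or near 0 in all 4 central axon controls, and Plxnc1 is tightly grouped in the soma batch 2 Cre libraries.

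The genes whose group means ran most like those of Sema3b, by Pearson correlation of log2 means over the 8 groups and among 13658 genes, were Baz1a (r = 0.978), the myelin gene Pmp22 (r = 0.977) and Retreg1 (r = 0.954). Pmp22 averaged 3180 CPM in peripheral axon Cre libraries, 3210 CPM in their controls, and in the central axon 274 CPM with Cre and 63.7 CPM without. The 8 Schwann cell markers, which include Pmp22, ran the other way in the central axon. Their sum had a median of 3140 CPM with Cre and 10200 CPM without, and the ranges overlapped (883 to 5730 and 590 to 25600 CPM). For Plxnc1 the closest were the actin regulators Capzb (r = 0.982) and Pfn1 (r = 0.973), and Sh3bp5l (r = 0.970). The correlations describe 8 group means and carry no test.

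Comparing Cre with control libraries asks which transcripts the tagged ribosomes raised above the RNA that the pulldown carries without a tag. In the central axon, edgeR called 0 of the 65 guidance genes tested and 0.0141% of the 14189 genes tested, and 2 guidance genes had an unadjusted p under 0.05, against 4.82% of all genes. DESeq2 called those 2, Sema3b and Efna1, both higher in Cre libraries. Of the 65, 4 had all Cre libraries above all controls, against a background of 6.82%, and 0 had all below, against 1.29%. Both counts were near the background. The 4 were Efna1, Sema3b, Plxnd1 and Sema4f.

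Efna1 (ENSMUSG00000027954, chromosome 3, 89271733 to 89281142, mm10) was at 84.2, 17.5, 17.4 and 9.76 CPM in central axon Cre libraries. It had no count in 3 of the controls and 0.102 CPM in the fourth, so the groups lay far apart. The ratio of 1382 to 1 counts was 1220, with a 95% counting interval of 218 to 48100. The edgeR adjusted p was 0.227, and over the 14 alternatives it ran from 1.54e-08 with DESeq2, the only setting that called the gene, to 0.927.

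Plxnd1, the receptor of semaphorin 3E, was at 48.2, 20.9, 11.9 and 20.1 CPM in central axon Cre libraries and at 7.52, 0, 0 and 5.43 CPM in their controls. Sema4f was at 361, 95.8, 151 and 130 CPM against 89.1, 68.6, 0 and 43.5 CPM. Neither overlapped, the nearest libraries of Sema4f being 95.8 and 89.1 CPM, and neither was called under any of the 14 alternatives. The log2 fold changes were 3.01 ± 1.79 for Plxnd1 and 1.98 ± 1.18 for Sema4f (edgeR adjusted p = 1.00 for both).

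In the peripheral axon 57 guidance genes were tested and 0 were called by edgeR, as were 0.0% of 13970 genes. An unadjusted p under 0.05 was reached by 2 of them and by 3.68% of all genes, and DESeq2 also called 0. Cre libraries lay all above the controls for 2 genes (background 3.58%) and all below for 2 (background 2.86%), both near the background. Epha6, an EphA receptor, was at 7.05, 0.332, 6.83 and 2.43 CPM in Cre libraries and had no count in the 3 controls. Its mean was at least 7.29-fold higher than the mean control floor of 0.571 CPM. The Cre library at 0.332 CPM lay below the floor of each control, 0.463 to 0.660 CPM, so that library and the controls cannot be ordered at this depth. Epha2, a receptor best known from epithelia, was at 23.4, 8.50, 11.7 and 9.71 CPM in Cre and 23.5, 29.0 and 67.4 CPM in control libraries, the nearest of them almost touching. The other gene above its controls was Sema3d, with means of 8.14 CPM in Cre and 1.85 CPM in control libraries. The other gene below was Ephb4, with means of 18.8 and 25.1 CPM.

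The batch 1 somas gave 0 called guidance genes of 46 tested, while edgeR called 4.42% of 11667 genes, and 2 guidance genes had an unadjusted p under 0.05, as had 1752 of the 11667 genes. Of the 46, 10 had all Cre libraries above all controls and 0 all below. The background was 28.0% and 0.429%, so that the 10 were near it. This order is by CPM of the library total. In the scaled edgeR fit Plxnb2 and Unc5d, among the 10, had log2 fold changes of -0.55 and -1.32, and the others were fitted higher in Cre libraries. Ephb3, an ephrin-B receptor, was at 6.94, 9.45, 8.20 and 19.3 CPM in Cre libraries and at no more than 0.216 CPM in the controls. Its 405 counts against 2 gave a ratio of 176, with a counting interval of 48.4 to 1460. Ntn3, a netrin, was at 14.8, 13.6, 10.4 and 15.6 CPM against 0, 0.324, 0 and 0 CPM. Both stood at 0 in 3 of the 4 controls.

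The number of calls in batch 1 somas turned on single libraries and on scaling. Control 3 detected 4934 genes with 10 counts and had a composition factor of 0.0547, against 1.30 to 1.78 in the other libraries. Without it edgeR called 8 guidance genes, all higher in Cre libraries: Ephb3, Ntn3, Unc5a, Unc5c, Unc5d, Efna4, Sema4c and Sema4g. Without Cre replicate 4 it called 2, and DESeq2 called 3. No share of all genes called is given for the fits without 1 library, so their counts are set against no background. In the main comparison 28.0% of all genes had all Cre libraries above all controls.

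In the batch 2 somas 0 of 61 guidance genes passed the threshold, as did 0.0% of 15280 genes, but 13 had an unadjusted p under 0.05, against 16.4% of all genes tested. No gene had all Cre libraries above the controls (background 4.29%), and 8 had all below (background 7.58%). Ntng1, a membrane-anchored netrin-G that binds a synaptic ligand, was at 6.74, 4.31, 3.31 and 2.63 CPM in Cre and 10.8, 96.7, 40.5 and 95.9 CPM in control libraries. Its log2 fold change was -3.59 ± 0.69, with an edgeR adjusted p of 0.0583. Sema3d, a secreted semaphorin, was at 3.68, 0.835, 1.12 and 1.55 CPM against 5.25, 24.7, 23.9 and 66.9 CPM. Slit2, a secreted repellent, was at 2.44, 2.25, 1.99 and 2.00 CPM, and its controls at 10.5, 20.97, 39.98 and 21.7 CPM. Controls 6 to 8 lay well above the Cre libraries for all 3 genes, and control 5 lay nearest to them. Control 5 held 18080478 counts in total, within the range of the Cre libraries (15562715 to 19637292). Controls 6 to 8 held 4053998, 3601399 and 4515978 counts. They were thus shallower than every Cre library of this comparison, and the part of depth in the result was not tested.

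The other 5 were Sema3c, Efnb2, Ntn1, Sema5a and Nrp1. DESeq2 called 9 of the 61, all lower in Cre libraries, and its count over all genes is given in the last section. For fits that leave out a library no share of all genes is given, so the next counts are set against no background. Without control 5 edgeR called 10, of which Efna1 and Sema4f were higher in Cre libraries, and without control 7 it called 5, all lower. Markers of other cells ran in the same direction: the 6 fibroblast markers summed to 173 to 364 CPM in Cre and 907 to 3660 CPM in control somas, and the 4 satellite glia markers to 168 to 332 and 470 to 2300 CPM. All 6 fibroblast markers reached 10 counts in every library of both groups, and their part in the result was not tested. In bulk pulldown libraries such as these, fewer cells of a type, less RNA per cell and a smaller share of RNA carried without a tag cannot be told apart.

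The next comparison set central axons against somas among Cre libraries of batch 1. Of the 64 guidance genes tested, edgeR called 14 higher in the axon (21.9%), against 8.63% of 14480 genes, and 1 lower, against 5.11%. All axon libraries lay above all soma libraries for 23 of them, against 21.0% of all genes, and below for 1, against 4.17%. The median log2 fold change of the 64 was 0.81, and that of all genes tested 0.05. With library totals as the only scaling, the all-gene median was 0.50 and 20 genes were called higher and 1 lower.

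Among ligands, Efnb3 led. This ephrin-B (ENSMUSG00000003934, chromosome 11, 69554092 to 69560205, mm10) is known for the midline barrier of the spinal cord. It was at 56.9, 116, 68.5 and 137 CPM in central axon Cre libraries and at 0.932, 2.14, 0 and 1.85 CPM in the somas. In the central axon controls it was at 237, 146, 0.741 and 84.8 CPM. The axon lay far above the soma, with a log2 fold change of 5.85 ± 0.71 (edgeR adjusted p = 0.000350), and the untagged pulldown reached the same level in 3 of 4 libraries.

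The semaphorins called were Sema3a, Sema4a, Sema5b, Sema6a and Sema6b. Sema3a, which repels sensory axons in development, was at 6.04, 22.4, 21.7 and 22.6 CPM in central axon Cre libraries and at 0, 0.195, 0 and 1.19 CPM in the somas. Its controls held 20.7, 30.8, 0 and 54.6 CPM. Sema5b rose by 5.11 ± 0.96 (edgeR adjusted p = 0.00554) and Sema6b by 4.23 ± 0.89 (adjusted p = 0.00942) on the log2 scale. Sema6a, a membrane-bound ligand of A plexins, rose by 3.24 ± 0.70 (adjusted p = 0.0110). Of the plexins, Plxna1 and Plxnb2 rose by 2.50 ± 0.70 and 2.10 ± 0.42 (edgeR adjusted p = 0.0331 and 0.00757). Reads over 10.7% of the exon length of Plxna1 could stem from an antisense gene, and the counting of strand is not given in the sources used here.

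Plxnd1 was the 1 guidance gene that fell. Its soma batch 1 Cre libraries held 79.7, 78.4, 69.8 and 103 CPM, above all 4 central axon libraries, and the log2 fold change was -2.09 ± 0.44 (edgeR adjusted p = 0.00923). It was also among the 4 genes whose central axon Cre libraries lay above their controls.

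Of the Robo and Slit genes, Robo3 alone was called. Robo3, which lets commissural axons cross the midline, was at 2.45, 3.14, 5.79 and 1.44 CPM in central axon Cre libraries, 140 counts in all. It had no count in any soma or peripheral axon library and was at 5.98 CPM in 1 central axon control. The central axon mean was at least 10.2-fold higher than the mean soma floor of 0.315 CPM (edgeR adjusted p = 0.0122). Of the netrin receptors, Unc5a was called higher (log2 fold change 2.55 ± 0.78, adjusted p = 0.0464), although its libraries overlapped with the somas.

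Of the Eph receptors, Epha10, Epha8, Epha4 and Ephb1 were called higher. Epha10 (ENSMUSG00000028876, chromosome 4, 124880899 to 124917800, mm10) is an Eph receptor without kinase activity. Its central axon Cre libraries had 23.1, 58.9, 52.1 and 114 CPM, above the somas at 4.87, 3.51, 1.90 and 6.88 CPM. It was at 48.3, 1.54, 0 and 36.4 CPM in the central axon controls. Its log2 fold change was 3.39 ± 0.51 (edgeR adjusted p = 0.00153). Ephb1, a guidance receptor for ephrin-B, was at 29.9, 67.1, 37.3 and 60.8 CPM against 0.725, 0.195, 0 and 2.51 CPM in the somas, with controls at 148, 45.3, 31.9 and 31.9 CPM. For Ephb1 every control reached the range of the Cre libraries.

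**Figure D3:**
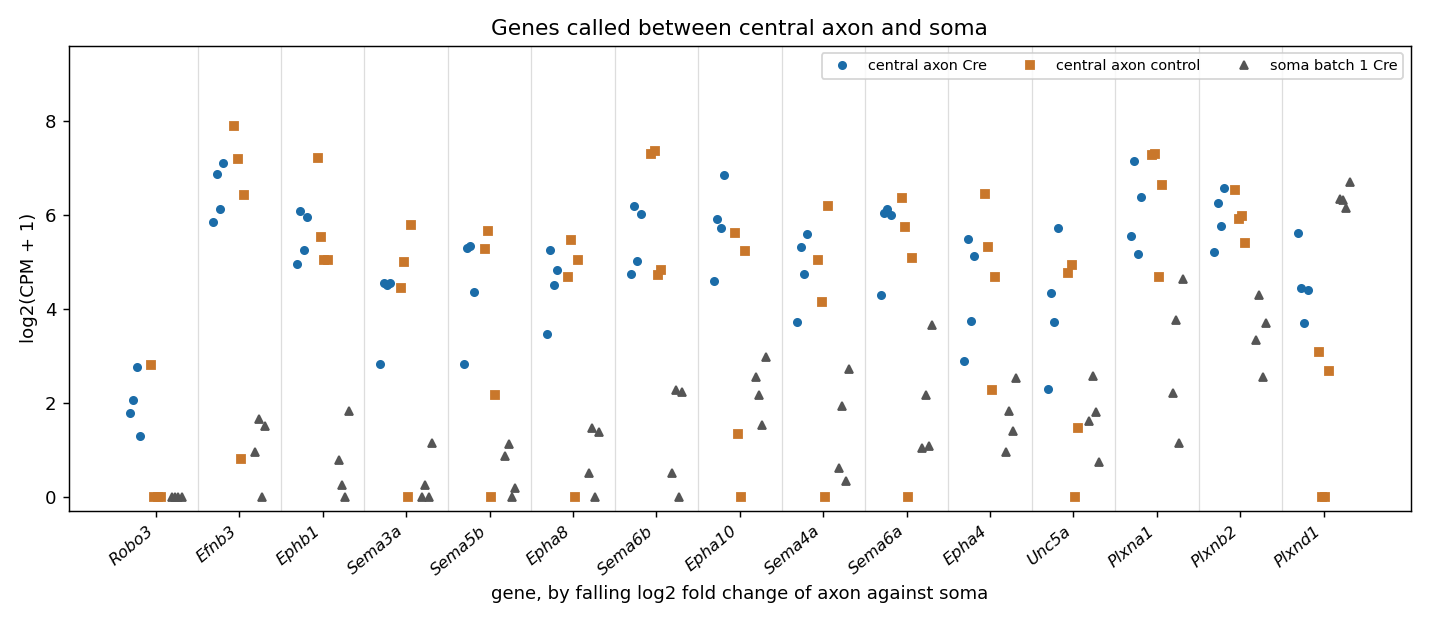
The 15 guidance genes called between central axon and soma (horizontal axis, by falling fitted fold change), with 1 point per library as log2(CPM + 1): blue circles for central axon Cre, orange squares for central axon control, grey triangles for soma batch 1 Cre. The blue and orange points intermingle for the 14 genes higher in the axon, and Plxnd1 at the right is the 1 gene higher in the soma.

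Of the 14 genes called higher in the central axon, 0 had all Cre libraries above all control libraries of the same tissue, against 3.36% of the 1250 genes called higher. The control mean was at or above the Cre mean for 7 of the 14, against 59.0% of the 1250. Markers of cells of the spinal cord moved with these genes. The 7 markers of spinal inhibitory and motor neurons summed to 128 to 352 CPM in central axon Cre libraries, 134 to 645 CPM in their controls and 1.36 to 6.99 CPM in the somas, where Slc32a1, Gad2, Slc6a5 and Chat had no count. The 6 astrocyte markers summed to 296 to 1350, 1330 to 2350 and 1.98 to 32.0 CPM. Their part in the result was not tested.

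When the control libraries of batch 1 entered the same fit, whose spread they then share, edgeR called 0 of the 15. DESeq2 called 24, and edgeR called 23 without soma Cre replicate 4, the latter set against no background here.

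Between peripheral axons and somas of batch 2, also among Cre libraries, edgeR called 28 of 64 guidance genes higher in the axon (43.8%), against 18.7% of 15467 genes, and 3 lower, against 12.5%. All axon libraries lay above all soma libraries for 28 genes, against 20.7%, and below for 4, against 16.0%. The median log2 fold change was 1.14 over the 64 genes and -0.03 over all genes tested. The higher genes were 4 of the 6 class 3 and 7 of the 13 class 4 to 7 semaphorins tested, both neuropilins, 3 plexins, 2 Slits, Robo4, Ntn1, Ntng1, 4 EphB and 2 EphA receptors and Efnb2.

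Besides Sema3b, the secreted semaphorins Sema3c and Sema3g stood out. Sema3c was at 92.7, 25.5, 77.9 and 56.9 CPM in peripheral axons with Cre, 32.1, 11.3 and 29.7 CPM in those without and 6.87, 7.78, 7.69 and 9.38 CPM in the somas. Sema3g was at 13.9, 7.64, 41.7 and 14.2 CPM, against 0 to 26.4 CPM in controls and no more than 0.964 CPM in the somas. Axon and soma libraries did not overlap for either gene. The log2 fold changes were 2.77 ± 0.41 (edgeR adjusted p = 0.000516) and 5.08 ± 0.79 (adjusted p = 0.000765).

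Sema5b rose by 4.93 ± 0.65 (edgeR adjusted p = 0.000253) and Sema6a by 3.13 ± 0.50 (adjusted p = 0.000920) on the log2 scale. Both were also called in the central axon, as were Plxna1, Plxnb2 and Ephb1 in the same direction and Epha10 in the opposite one. These 6 were the genes called in both axons, among 60 tested in both.

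Of the plexins and neuropilins, both neuropilins, 1 of 4 A plexins and 2 of 5 B to D plexins rose and 1 A plexin fell. Nrp2, the co-receptor of semaphorin 3F, was at 78.8, 80.3, 105 and 135 CPM in peripheral axon Cre libraries and at 9.86, 17.9, 8.35 and 13.2 CPM in the somas. Its log2 fold change was 2.83 ± 0.34 (edgeR adjusted p = 0.000142), and its controls spread from 6.48 to 228 CPM. Plxnb3, a receptor of semaphorin 5A, was at 85.1, 10.3, 20.3 and 36.2 CPM, at 56.1, 42.9 and 165 CPM in controls and at no more than 1.09 CPM in the somas. The fold change of Plxnb3, 5.73 ± 0.73 on the log2 scale, was the largest of the 31 genes called (adjusted p = 0.000214).

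Robo4, the Robo receptor of blood vessels, was at 17.02, 5.91, 20.3 and 10.2 CPM in peripheral axon Cre libraries and at no more than 0.562 CPM in every soma Cre library of batch 2. The 5 endothelial markers summed to 65.2 to 141 CPM in peripheral axon Cre libraries, 72.6 to 195 CPM in their controls and 4.69 to 12.4 CPM in the somas, and their part in the Robo4 result was not tested. Ntng1 was at 66.9, 34.8, 30.99 and 64.5 CPM against 6.74, 4.31, 3.31 and 2.63 CPM (log2 fold change 3.32 ± 0.41, edgeR adjusted p = 0.000186). Its controls, at 33.5, 30.98 and 126 CPM, covered the range of the Cre libraries.

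Epha5 and Epha2 were the EphA receptors that rose. Epha5, which takes part in topographic mapping, was at 170, 52.3, 90.8 and 148 CPM in peripheral axons with Cre, 60.1, 72.8 and 128 CPM in those without and 10.9, 7.65, 8.66 and 11.7 CPM in the somas. Its log2 fold change was 3.33 ± 0.36 (edgeR adjusted p = 8.57e-05). Epha2 rose by 4.89 ± 0.76 (adjusted p = 0.000781), and was among the 2 genes with all Cre peripheral axon libraries below the controls.

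The genes lower in the peripheral axon were Epha10, Efna3 and Plxna4. Epha10 had no count in 3 peripheral axon Cre libraries and 0.398 CPM in the other one, below all soma libraries, which held 1.99 to 4.95 CPM (log2 fold change -4.43 ± 1.10, edgeR adjusted p = 0.0103). The peripheral axon controls of Epha10 held 5.28, 0 and 27.7 CPM, 2 of them above all somas. Efna3, an ephrin-A, was at 1.95, 4.72, 0.976 and 2.77 CPM against 10.4, 10.6, 7.33 and 14.6 CPM. It fell by 2.19 ± 0.63 on the log2 scale (adjusted p = 0.0208), and an antisense gene covers 14.1% of its exon length. Plxna4, a receptor for class 3 semaphorins, fell by 1.41 ± 0.50 (adjusted p = 0.0493). The call of Plxna4 was lost without peripheral axon replicate 3 or 4 or any soma replicate (adjusted p 0.0698 to 0.112), and that of Efna3 without soma replicate 5, 6 or 8 (adjusted p 0.0528 to 0.0899).

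**Figure D4:**
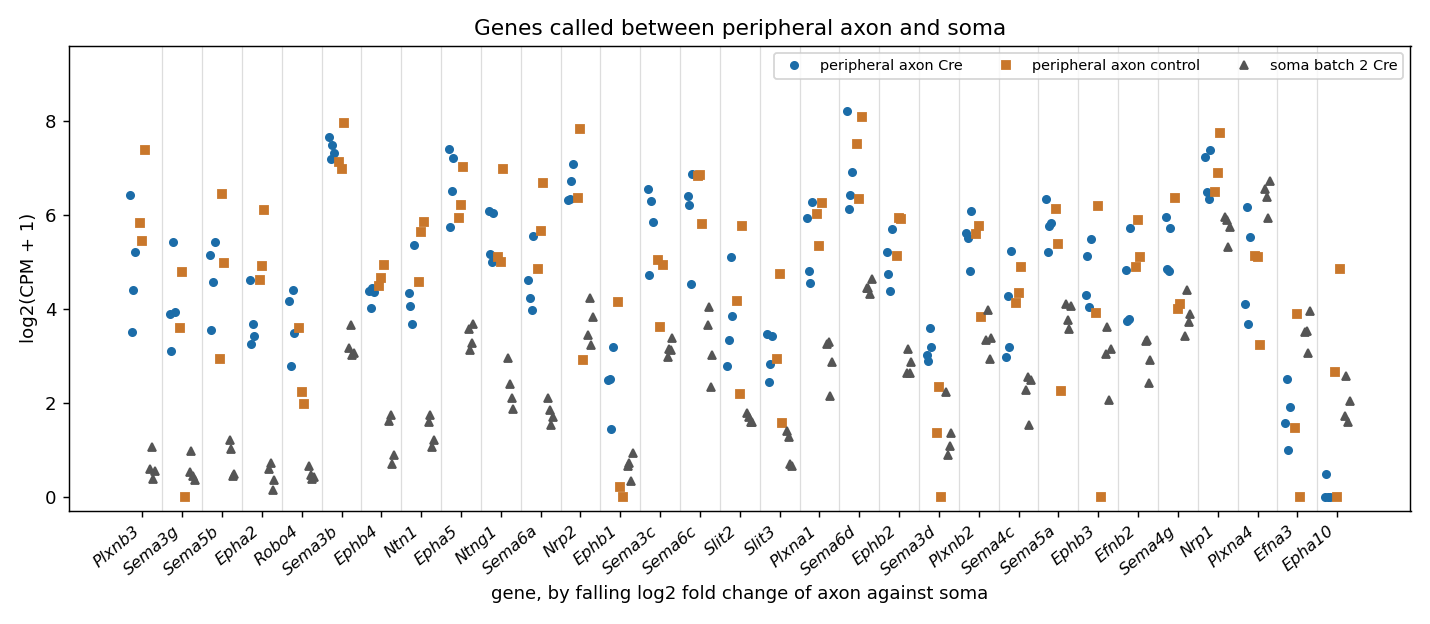
The 31 guidance genes called between peripheral axon and soma (horizontal axis, by falling fold change), with 1 point per library as log2(CPM + 1): blue circles for peripheral axon Cre, orange squares for peripheral axon control, grey triangles for soma batch 2 Cre. Controls lie among or above the Cre axon libraries for most of the 28 higher genes, and Plxna4, Efna3 and Epha10 at the right are the 3 lower ones.

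Of the 28 genes called higher, 1 had all peripheral axon Cre libraries above all controls, against 5.02% of the 2889 genes called higher, and 19 had a control mean at or above the Cre mean, against 53.3%. Of the 3 genes called lower, Epha10 and Efna3 had a control mean above the Cre mean. The 8 Schwann cell markers summed to 10700 to 27800 CPM in peripheral axon Cre libraries, 8660 to 15500 CPM in their controls and 656 to 808 CPM in the somas. The 6 fibroblast markers summed to 3820 to 6690, 5220 to 19600 and 173 to 364 CPM. All 8 and all 6 reached 10 counts in every peripheral axon library, none was at 0 in the somas, and their part in these results was not tested. The 9 nociceptor markers ran the other way, at 490 to 1540 CPM in the axon and 2450 to 4330 CPM in the soma. With the batch 2 controls in the same fit edgeR called 13 of the guidance genes, all higher in the axon.

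Central and peripheral axons were compared through their differences from soma, in 1 fit of the 4 Cre groups. Of 68 guidance genes, edgeR called 4 with a higher difference in the central axon (background 7.20% of 16725 genes) and 5 with a lower one (background 5.88%). Those on the central side were Epha10 (7.83 ± 1.04 on the log2 scale, adjusted p = 0.000207), Sema3a (6.80 ± 1.70, adjusted p = 0.0136), Efnb3 (6.58 ± 1.24, adjusted p = 0.00258) and Efna3 (3.44 ± 0.66, adjusted p = 0.00286). Those on the peripheral side were Sema3g (-7.33 ± 1.61, edgeR adjusted p = 0.00645), Sema3b (-4.71 ± 0.57, adjusted p = 0.000148), Epha5 (-2.14 ± 0.51, adjusted p = 0.0111), Plxnd1 (-1.94 ± 0.62, adjusted p = 0.0450) and Efnb1 (-1.86 ± 0.60, adjusted p = 0.0466).

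Both counts were near the background. The controls did not enter the fit of the Cre groups, so RNA carried without a tag was not removed. Central axon means, Cre then control, were 62.1 and 21.6 CPM for Epha10 and 18.2 and 26.5 CPM for Sema3a. They were 94.5 and 117 CPM for Efnb3 and 54.7 and 53.8 CPM for Efna3. Peripheral axon means were 19.4 and 12.45 CPM for Sema3g, 170.8 and 170.5 CPM for Sema3b and 115 and 87.0 CPM for Epha5. For Plxnd1 and Efnb1 they were 47.7 and 45.65 and 59.8 and 93.8 CPM. Of the 7 class 3 semaphorins, Sema3a was on the central side, Sema3b and Sema3g were on the peripheral side, and Sema3c, Sema3d, Sema3e and Sema3f were not called. Sema3a held 0, 0.664, 0 and 0 CPM in peripheral axon Cre libraries and no count in their controls. Of the ephrin-B genes, Efnb3 was central and Efnb1 peripheral, but the call of Efnb1 was lost with the replicate block (edgeR adjusted p = 0.0658), with library totals as the scaling (0.0533) and without the low-count filter (0.0644). Without any 1 of 10 of the 16 libraries the call of Efnb1 was lost (adjusted p up to 0.108), and without any 1 of 11 that of Plxnd1 (up to 0.102). For both these included central axon replicates 2, 3 and 4, soma batch 1 replicates 2 and 4, peripheral axon replicates 2 and 4 and soma batch 2 replicates 5, 7 and 8, and for Plxnd1 also soma batch 1 replicate 1. The other 7 were called in all 16 of these fits, and with all 8 groups in 1 fit 0 of the 9 were called.

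**Figure D5:**
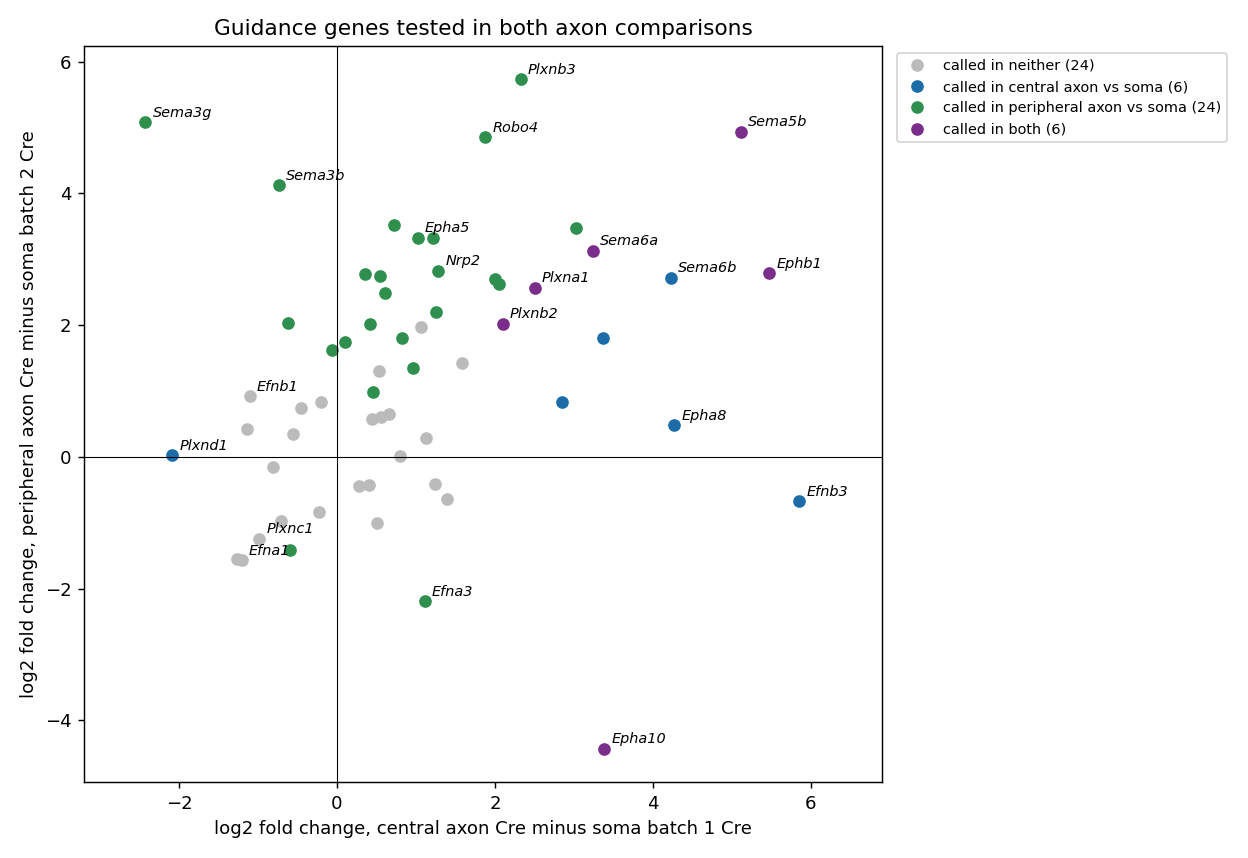
Log2 fold change of the 60 guidance genes tested in both axon comparisons, central axon against soma on the horizontal and peripheral axon against soma on the vertical axis, coloured by the comparison in which a gene was called (6 in both, 6 in the central axon alone, 24 in the peripheral axon alone, 24 in neither). Efnb3 and Epha10 lie at the lower right, Sema3b and Sema3g at the upper left, and Sema5b at the upper right.

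Whether the axon-against-soma difference of Cre libraries differed from that of controls was tested as an interaction in each batch. In batch 1 edgeR called 0 of 68 guidance genes and 0.0% of 15355 genes, with 15 guidance genes at an unadjusted p under 0.05, near the 20.4% of all genes, and DESeq2 called 3. Sema3b and Efna1, with 2 counts and 1 count in the central axon controls, had an edgeR adjusted p of 0.120 each and were among those 3. Without soma control 3 edgeR called 3, a count set against no background: Ephb3, Ntn3 and Sema4g. In batch 2 it called 0 of 66 guidance genes and 0.00636% of 15717 genes, with 11 at an unadjusted p under 0.05, against 9.74% of all genes, and DESeq2 called 4.

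Signalling partners outside the rule were read from a list of 47 genes. Of the 47 tested in central axon against soma, 7 were called higher (background 8.63%) and 1 lower (background 5.11%). Of the 46 tested in the peripheral axon, 10 were called higher (background 18.7%) and 10 lower (background 12.5%). The count of higher genes in the peripheral axon was near the background. Among the 14 semaphorin effectors tested there, 2 rose and 6 fell, and 4 of the 6, picked after their values were seen, belong to the collapsin response mediator family. The 7 general neuronal markers moved with them, at 1920 to 8500 CPM summed in peripheral axon Cre libraries and 13200 to 15900 CPM in the somas, and their part in the result was not tested. Crmp1 fell by 1.75 ± 0.45 on the log2 scale (edgeR adjusted p = 0.0128), Dpysl3 by 1.81 ± 0.51 (adjusted p = 0.0198), and Dpysl4 and Dpysl5 were called as well. Srgap2, which acts below Robo receptors, rose in both axons, by 2.40 ± 0.43 in the central (adjusted p = 0.00456) and 2.95 ± 0.34 in the peripheral axon (adjusted p = 0.000112). Among the other Slit-Robo effectors listed, Srgap1 fell in the central axon (log2 fold change -1.06 ± 0.30, edgeR adjusted p = 0.0338). Srgap3 fell in the peripheral axon (-1.09 ± 0.28, adjusted p = 0.0128).

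The netrin-G ligand gene Lrrc4c rose in the central axon, from a mean of 7.84 ± 3.02 to 46.7 ± 16.7 CPM (SD, n = 4 each; edgeR adjusted p = 0.00531). Lrrc4b rose there by 5.41 ± 0.80 on the log2 scale (adjusted p = 0.00134). Tiam1, an exchange factor used by ephrin and Eph signalling, rose in the peripheral axon by 3.51 ± 0.45 (adjusted p = 0.000207). Control levels of these partner genes are not given here. In central axon Cre against control the median log2 fold change was -0.64 for the netrin list and -0.50 for the Slit-Robo list. In the peripheral axon it was -0.28 for the Slit-Robo list and 1.07 for the Eph-ephrin list. In Cre against control, 1 of the 47 was called in all, the netrin antagonist Draxin in batch 1 somas, with a mean of 5.04 ± 1.32 CPM in Cre libraries and no count in the 4 controls. There 41 of the 47 were tested, and edgeR called 4.42% of 11667 genes, so this call is no more than the background. The fit held soma control 3, whose composition factor was 0.0547.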

How the data were processed

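Per the file headers, each batch has a table of counts as deposited by the authors, with raw reads per gene and a column for every library. Reads were aligned with STAR 2.7.2b to mm10, per the submitters' processing notes. The counting program, its use of strand and its handling of multi-mapping reads are not given in the sources used here. The RNA amounts were very small and were amplified with a SMART-Seq kit, per the labels' protocols. One column name of batch 1 occurs on 2 soma control columns, called replicates a and b and listed last. Values are listed in replicate order.

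All 55536 identifiers were matched to GENCODE M21, whose symbols chose the genes; 3 matching symbols were not protein-coding and were left out. Levels are CPM of the library total, divided by exon length where genes are compared. Each comparison was fitted over all genes with edgeR 4.0.16 in R 4.3.3 (TMM, filterByExpr with a minimum count of 10, quasi-likelihood test), using the groups compared, and Benjamini-Hochberg adjusted p under 0.05 counted as called. Each SE was derived from the fold change and its F statistic. The code was tested on simulated data with a single spread between libraries, which does not show how the tests behave at the wider spread of some comparisons. DESeq2 1.42.0 was an alternative. No 2 replicates were copies: chi-square per degree of freedom was at least 24.8 in all 45 pairs.

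The members and the marker and partner lists were chosen with earlier results of these data known. Named were Sema3b and Plxnc1, the highest member of each family, up to 10 called members per direction, and up to 6 without overlap per comparison. Lists of called genes by family, the calls under other settings and the partner genes named as examples were picked after their values were seen.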

Additional observations from a re-analysis of the deposited data

Results flagged for a closer look

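Among 199 combinations of a named gene and a group of 4 libraries with a mean of at least 5 CPM, 24 had 1 library far from the other 3 by Dixon's test at the 95% level; chance flags about 1 in 20 groups. Most were single high controls. In soma batch 1 controls these were Epha8 at 273 CPM, Plxnc1 at 253 CPM, Slit1 at 169 CPM, Sema3b at 80.7 CPM, Epha5 at 79.0 CPM, Efna1 at 68.3 CPM, Ephb6 at 67.6 CPM, Sema3c at 63.1 CPM, Robo2 at 34.3 CPM, Sema5b at 32.5 CPM and Sema4d at 19.4 CPM. In soma batch 2 controls they were Sema4f at 325 CPM, Epha5 at 79.7 CPM, Efna1 at 62.0 CPM and Ntn1 at 22.2 CPM, and Robo2 was low in 1 library at 29.4 CPM. In central axon controls they were Sema4c at 155 CPM, Ephb1 at 148 CPM, Efnb2 at 37.8 CPM and Epha2 at 23.5 CPM.

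Of the central axon Cre libraries, replicate 1 was high for Efna1 at 84.2 CPM and low for Sema6a at 18.6 CPM and Sema3a at 6.04 CPM, and replicate 4 was high for Ephb4 at 24.3 CPM.

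For 9 genes the difference from soma differed between central and peripheral axon by edgeR's test of the difference itself, in which the controls took no part. On the log2 scale, central minus peripheral, these were Epha10 (7.83), Sema3a (6.80), Efnb3 (6.58), Efna3 (3.44), Efnb1 (-1.86), Plxnd1 (-1.94), Epha5 (-2.14), Sema3b (-4.71) and Sema3g (-7.33).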

How the results depend on the processing

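No named gene called in a main fit changed direction under any alternative run. In soma batch 1 Unc5d, not called in the main fit, had a log2 fold change of -1.32 there. It was called at 9.04 without control 3. Counts of guidance genes called moved as follows. DESeq2 gave 2 instead of 0 in central axon Cre against control, 3 in soma batch 1, 9 in soma batch 2, 24 instead of 15 in central axon against soma, 16 instead of 9 between the axons, and 3 and 4 instead of 0 in the interactions of batches 1 and 2. Library size alone gave 5 in soma batch 1 and 4 in soma batch 2. Without the low-count filter, 2 were called in each of these and 1 in the batch 1 interaction. With all groups of a batch (all 8 between the axons) in 1 fit, 4 and 1 were called in the somas of batches 1 and 2, 0 in central axon against soma, 13 instead of 31 in peripheral axon against soma and 0 between the axons. Leaving out 1 library gave 0 to 8 in soma batch 1, 0 to 10 in soma batch 2, 11 to 23 in central axon against soma, 21 to 35 in peripheral axon against soma, 7 to 13 between the axons and 0 to 3 in the batch 1 interaction. The 23 of central axon against soma came without soma Cre replicate 4, the 8 of soma batch 1 without control 3 and the 10 of soma batch 2 without control 5. Counts over all genes are not given here for the fits without 1 library. Of 709 single-gene values over 47 results, 628 kept their side of the threshold, 23 gained and 58 lost a call. The 709 values leave out Cre against control in soma batch 1, whose counts of calls are given above.

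Over all genes, DESeq2 called 216 instead of 2 in central axon Cre against control, 27 instead of 0 in the peripheral axon, 1902 instead of 516 in soma batch 1, 1160 instead of 0 in soma batch 2, 3143 instead of 1990 in central axon against soma and 3290 instead of 2187 between the axons. All groups in 1 fit gave 2114 in soma batch 1, 175 in soma batch 2, 15 in central axon against soma, 1404 instead of 4818 in peripheral axon against soma and 1 between the axons. The interactions gave 582 and 343 genes with DESeq2 instead of 0 and 1, and 320 and 23 without the filter. Without the filter 34 genes were called in central axon Cre against control, 1700 in soma batch 1 and 162 in soma batch 2. Library size alone called 257 genes in soma batch 2 and 2244 in soma batch 1, in the latter moving the all-gene median log2 fold change from -0.45 to 0.36; the cause was not tested.

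Same-numbered libraries correlated weakly: r ran from -0.005 to 0.196 for central axon and soma Cre libraries (mean 0.116, against -0.0382 for other pairs), where 2 of 4 correlated best with their own number, from -0.029 to 0.060 for central axon Cre and control, from -0.004 to 0.209 for soma batch 2 and from -0.118 to 0.127 for peripheral axon Cre and control. In no set was every pair over 0.1. The numbers are thus not taken as pairs. With the replicate block 19 genes were called in central axon against soma, 12 between the axons and 0 in each Cre against control comparison and in the batch 1 interaction. Over all genes in soma batch 1 it gave 0 instead of 516. No block was possible for peripheral axon against soma, whose numbers differ. Depth limits the low genes: in the shallowest library 3 counts equal 0.833 CPM.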
